A study of Mus musculus with 6 samples.

Results

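The genes described here are 42 interferon response genes, named in a list of symbols that covers receptors, transcription factors and interferon-induced products. Of these, 41 were matched by symbol among the 31253 features of the deposited count tables, and Mx1 is not analysed here. They were measured by droplet single-cell RNA sequencing of mouse bone marrow in 3 Txnip knockout (Txnip-KO) samples and 3 wild-type (WT) samples. Marrow was flushed from bone, enriched and sorted by flow cytometry, and the labels do not name the cells that were sorted for. All groups share the tissue and the sort, and the labels give no age, sex, strain, treatment or deleted part of Txnip. Whether each sample is its own animal is not stated, so the p-values speak of the spread among these 6 samples, part of which may be technical.

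Interferons are cytokines, and those of type I are released after a cell senses viral or other foreign nucleic acid. Type I interferons bind the receptor chains Ifnar1 and Ifnar2, and interferon gamma binds Ifngr1 and Ifngr2. Receptor-bound Janus kinases then phosphorylate STAT proteins, which enter the nucleus. Complexes that hold Stat2 and Irf9 bind interferon-stimulated response elements (ISRE), while STAT dimers bind gamma-activated sites (GAS). The induced genes block viral entry, translation and replication, and in marrow interferon also acts on blood stem cells, which are known to express some of these genes without infection.

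After filtering, 41513 cells and 389536904 UMIs (unique molecular identifiers, each 1 captured transcript) remained. Median UMIs per kept cell were 8187, 7834 and 6932 in Txnip-KO 1, 2 and 3, against 8918, 9176.5 and 8934 in WT 1, 2 and 3. Cells were put in 14 gates by marker genes, which hold 32863 cells, and 8561 cells met no gate (20.7%, 27.3% and 21.8% in Txnip-KO, against 17.8%, 18.4% and 16.4% in WT). In each gate, the genes with the largest fold over other WT cells included the gate's own markers. In the monocyte gate the conventional dendritic list still summed above the gate's own list. The marker lists of 2 further types, stromal and plasma cell, gated too few cells to compare. Plasmacytoid dendritic cells were 2.45% ± 0.596 of Txnip-KO and 6.82% ± 1.33 of WT kept cells, and basophil or mast cells 5.73% ± 3.43 and 11.8% ± 0.861 (SD, n = 3 each). Neutrophils were 4.62%, 0.281% and 1.49% in Txnip-KO 1, 2 and 3, against 0.382% to 0.598% in WT. All 33 plasma cells were in Txnip-KO 2. Any pair of libraries shared at most 0.256% of its barcodes.

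Txnip, the thioredoxin-interacting protein gene named in the labels, stood at 10.0, 9.50 and 0.450 CPM (UMI counts scaled to a common library total) in Txnip-KO 1, 2 and 3, against 311, 215 and 285 CPM in WT 1, 2 and 3. These are 585, 666 and 28 UMIs, against 19607, 14903 and 18717. No Txnip-KO sample overlapped a WT sample, and the log2 fold change was -5.34 (SE 0.80; adjusted p = 0.00240). Counts from the 3' end outside a deleted part would not test the deletion.

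The ISRE is the DNA element through which type I interferon acts on many of these genes, so its letters were looked up in promoter windows of 300 bases (RefSeq, GRCm38.p6). The windows run from 250 bases before to 50 bases after the start of a gene, and the letters searched were GAAANNGAAA on both strands, so that runs beginning TTTC below are the same element read on the other strand. Windows were found for 32 of the 41 members. The letters were in 17 of 39 member windows (43.6%), belonging to 16 members, against 3.44% of all 32851 promoter windows. GAS letters, TTCNNNGAA, were in 11 of 39 windows (28.2%) against 8.30% of all windows. A match is a description of the letters and does not show binding. The 5 members below had these letters and lower counts in Txnip-KO over all cells. They are shown 5′ to 3′ on the gene's strand, with the ISRE letters and any overlapping copy in capitals and 20 bases around the copy nearest the start.
Isg15 (chr4:156200855-156200904, minus strand): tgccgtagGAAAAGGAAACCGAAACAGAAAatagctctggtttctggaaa
Ifit3 (chr19:34583387-34583436, plus strand): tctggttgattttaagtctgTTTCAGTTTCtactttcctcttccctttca
Ifit1 (chr19:34640784-34640833, plus strand): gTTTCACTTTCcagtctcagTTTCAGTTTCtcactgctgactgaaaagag
Gbp3 (chr3:142559985-142560034, plus strand): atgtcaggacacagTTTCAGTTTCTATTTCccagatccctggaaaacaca
Oas3 (chr5:120777705-120777754, minus strand): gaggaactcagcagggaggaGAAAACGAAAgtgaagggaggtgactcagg

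The same letters stood before members that were not lower over all cells, of which Rsad2, Stat2 and Gbp2 are shown for comparison.
Rsad2 (chr12:26456543-26456592, minus strand): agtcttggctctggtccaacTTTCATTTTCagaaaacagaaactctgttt
Stat2 (chr10:128270256-128270305, plus strand): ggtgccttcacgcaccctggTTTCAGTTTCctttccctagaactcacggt
Gbp2 (chr3:142620584-142620633, plus strand): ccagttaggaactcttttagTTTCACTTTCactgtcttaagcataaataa

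Among the members shown, Ifit3, Ifit1, Gbp3 and Stat2 share TTTCAGTTTC, and Gbp2 and the upstream copies of Ifit1 and Ifit3 share TTTCACTTTC. The upstream copy of Ifit3 lies outside the bases shown. Of the 16 matched members with ISRE letters, 5 were lower in Txnip-KO over all cells, with a median log2 fold change of -0.15. Over all genes tested, 19.3% were lower and 21.8% higher. Of the 16 matched members without them, 5 were lower and 2 higher, with a median of -0.21.

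Levels in WT cells differed between gates for each of the 41 members (edgeR quasi-likelihood F test over gates, adjusted p under the threshold of 0.05). The background was as wide: 97.8% of all genes tested differed between gates. Plasmacytoid dendritic cells, the main producers of type I interferon, and NK cells each had the highest level of 9 members. In 6 of those 9 members in plasmacytoid dendritic cells, and 5 of 9 in NK cells, no WT sample of the gate overlapped the gate next in order. How often other genes were highest in these gates, or without overlap there, was not counted. HSCs (hematopoietic stem cells) and monocytes had the highest level of 5 members each.

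**Figure D1:**
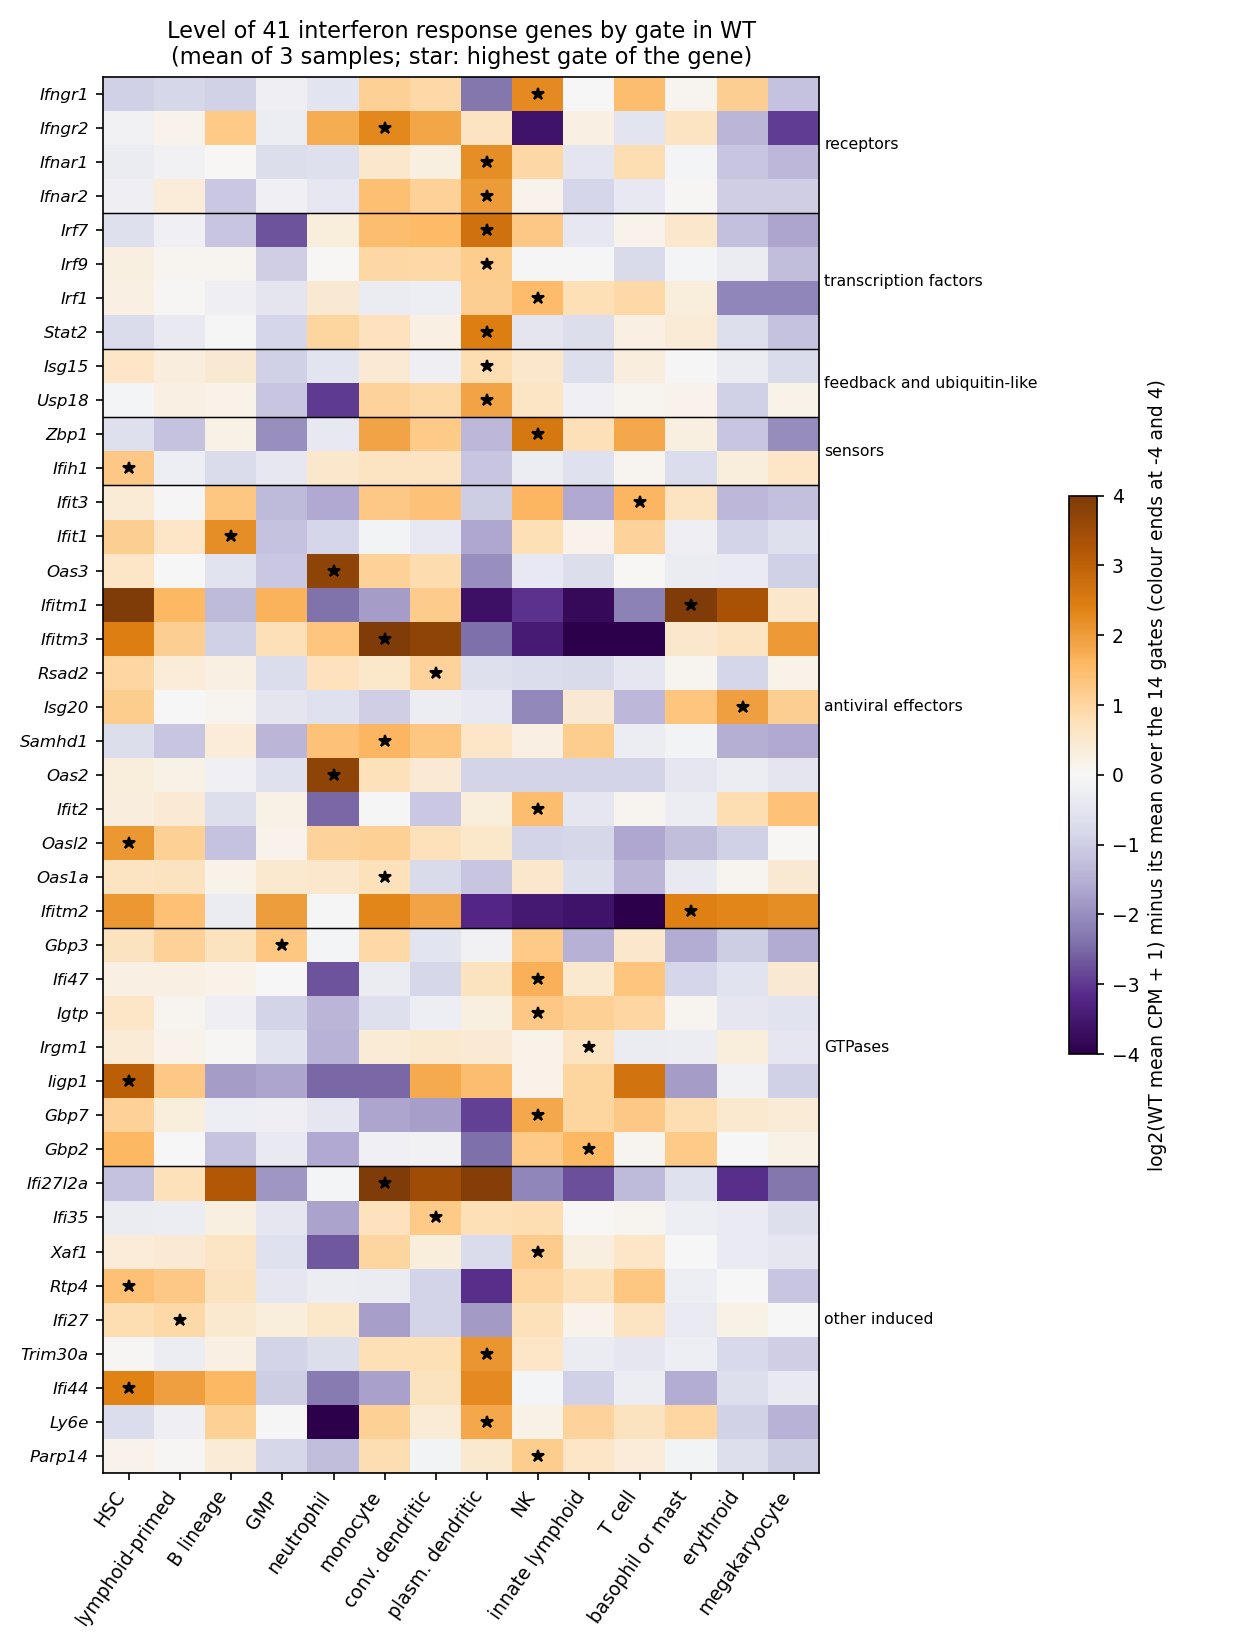
Level of each of the 41 members by gate in WT, as log2 of the mean CPM of 3 samples plus 1, minus the member's own mean over the 14 gates; brown is above and purple below that mean, and a star marks the member's highest gate. The plasmacytoid dendritic and NK columns hold 9 stars each (GMP, granulocyte-monocyte progenitor), and the same count over all genes was not made.

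The 4 receptor chains had unlike orders in WT. Ifnar1, which carries the type I signal with Ifnar2, was highest in plasmacytoid dendritic cells at 192, 182 and 172 CPM in WT 1, 2 and 3, and lowest in megakaryocyte cells at a mean of 14.49. Ifnar2 was also highest in plasmacytoid dendritic cells, at a mean of 302 CPM, then in monocytes at 205. Both orders had no overlap between their first and second gates.

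Ifngr1, the ligand-binding chain for interferon gamma, was highest in NK cells at 585, 611 and 695 CPM, then in T cells at a mean of 368, and lowest in plasmacytoid dendritic cells at 25.2. Ifngr2, the second chain of that receptor, was highest in monocytes at 126, 128 and 125 CPM and lowest in NK cells at a mean of 1.15. The gate with the most Ifngr1 thus had the least Ifngr2 among the 14.

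Among the transcription factors, Irf7, which drives type I interferon genes, stood at 120, 112 and 119 CPM in plasmacytoid dendritic cells and at a mean of 52.5 in conventional dendritic cells, the next gate. Stat2, a partner of Irf9, stood at 98.6, 80.9 and 89.4 CPM there, and the next gate, neutrophils, had a mean of 32.2. Irf9 was highest in the same gate at a mean of 102 CPM but overlapped monocytes at 87.5. Irf1, an early factor downstream of interferon gamma, was highest in NK cells at a mean of 151 CPM.

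Of the sensors, Zbp1, which binds left-handed nucleic acid and can trigger cell death, was highest in NK cells at 87.4, 81.7 and 77.2 CPM, with no overlap with monocytes at a mean of 50.5. Ifih1, which detects long double-stranded RNA, was highest in HSCs at a mean of 31.6 CPM, overlapping conventional dendritic cells at 20.3.

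The effectors were spread over more gates. Ifitm3, a membrane protein that blocks viral entry, stood at 2817, 3140 and 3169 CPM in monocytes and at a mean of 2087 in conventional dendritic cells. Ifitm1, of the same family, stood at 3033, 3464 and 4178 CPM in basophil or mast cells and at a mean of 1163 in HSCs. The gates next in order were HSCs for Ifitm3, at a mean of 853 CPM, and erythroid cells for Ifitm1, at 669. The lowest were T cells for Ifitm3, at a mean of 2.79 CPM, and innate lymphoid cells for Ifitm1, at 3.79.

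Oas3 and Oas2, enzymes that make 2-5A to activate RNase L, were highest in neutrophils. Oas3 stood there at 46.1, 107 and 62.0 CPM, against a mean of 10.5 in monocytes, and Oas2 at 18.4, 40.98 and 10.3 CPM, against 2.09. The neutrophil gate held only 30, 42 and 26 WT cells. Oasl2, a related protein, was highest in HSCs at 39.5, 31.5 and 32.2 CPM and did not overlap the next gate. Isg20, an exonuclease, was highest in erythroid cells at 58.6, 51.1 and 65.0 CPM, with no overlap with basophil or mast cells.

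The GTPases and other induced members described here overlapped their second gate in WT. Iigp1, a GTPase that acts on the vacuole of intracellular parasites, stood at 61.2, 40.96 and 38.4 CPM in HSCs and overlapped T cells. Ifi27l2a was highest in monocytes at 792, 996 and 861 CPM, overlapping plasmacytoid dendritic cells at a mean of 783, and lowest in erythroid cells at 5.13. Ifi44 was highest in HSCs at 22.1, 27.1 and 24.0 CPM and overlapped plasmacytoid dendritic cells. Gbp7, an interferon-induced GTPase, was highest in NK cells at 157, 128 and 134 CPM and overlapped T cells. Gbp2 of the same family had nearly equal means in innate lymphoid cells (32.7 CPM) and HSCs (32.6 CPM). Ifit1, which binds viral RNA lacking host cap marks, had its highest mean in the B lineage, but the 3 values there were 1.94, 6.28 and 81.9 CPM, so that mean rests on WT 3.

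Over all kept cells, 15 of 41 members were lower in Txnip-KO (36.6%) and 2 were higher, and 29 of 41 log2 fold changes were below 0. Among all 14648 genes tested, 19.3% were lower and 21.8% were higher. The median log2 fold change was -0.20 over the members and 0.04 over all genes tested. Ifi27l2a and the ubiquitin-like modifier Isg15 had the smallest p among members. A sum over all cells adds together how many cells of a type there are and how much each holds, and these cannot be told apart in it. When every sample gave equal cell numbers per gate and of ungated cells, the 15 lower members were again lower. In all, 17 members were then lower and 5 were higher. The mix of cells inside a gate or among ungated cells was not matched.

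**Figure D2:**
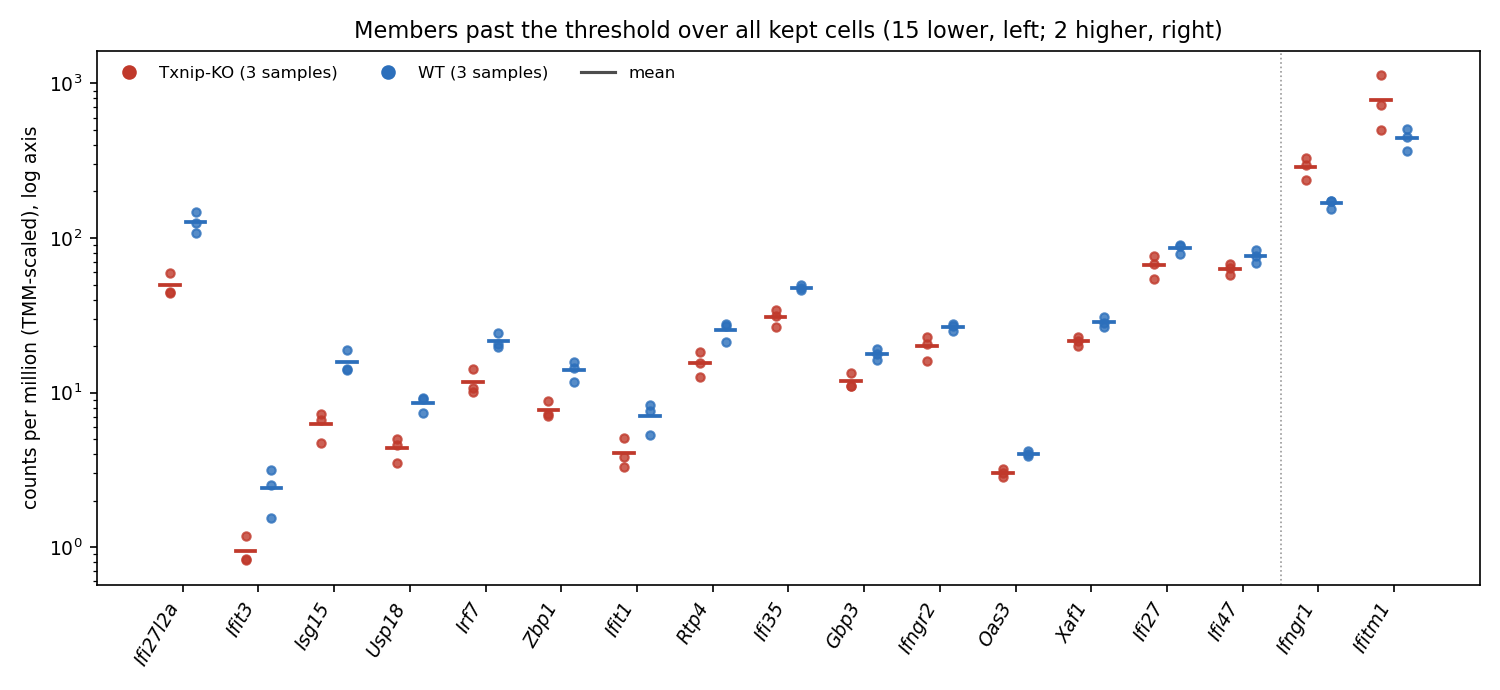
CPM on a log axis in each sample for the 17 members past the threshold over all kept cells, Txnip-KO (red) left of WT (blue), with the mean as a line; 15 lower members stand left of the dotted line and the 2 higher members, Ifngr1 and Ifitm1, right of it. The 2 groups overlap for Ifitm1 and not for the other 16, and the share of all genes without overlap was not counted.

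Receptor chains moved in unlike directions. Ifngr1 (chromosome 10, 19591949 to 19610229, plus strand, GENCODE M21 on GRCm38) had 299, 236 and 332 CPM in Txnip-KO 1, 2 and 3, against 175, 155 and 174 in WT 1, 2 and 3. All Txnip-KO samples were above all WT samples, and the log2 fold change was 0.78 (SE 0.12; adjusted p = 0.00280). Ifngr2 had 20.6, 16.0 and 23.0 CPM in Txnip-KO, against 25.1, 26.8 and 27.9 in WT. Its samples did not overlap either, and it fell by 0.42 on the log2 scale (SE 0.12; adjusted p = 0.0267), a call lost without WT 2 or WT 3 (-0.42 and -0.39).

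The type I chains did not pass the threshold over all cells. Ifnar1 had 50.1, 43.5 and 50.6 CPM in Txnip-KO, against 42.3, 41.4 and 45.2 in WT, and the groups overlapped (log2 fold change 0.16, SE 0.08, adjusted p = 0.132). With equal cell numbers per gate its log2 fold change was 0.32 and past the threshold. Ifnar2 had 90.1, 83.6 and 95.3 CPM in Txnip-KO, against 88.0, 88.5 and 97.2 in WT (-0.02, SE 0.08, adjusted p = 0.815). Its groups overlapped.

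Of the 4 transcription factors, Irf7 alone was past the threshold, beside 19.3% lower and 21.8% higher of all genes tested. Irf7 (chromosome 7, 141262706 to 141266481, minus strand) had 10.1, 10.6 and 14.2 CPM in Txnip-KO, against 20.8, 19.7 and 24.4 in WT. It was lower in every Txnip-KO sample (-0.89, SE 0.14; adjusted p = 0.00292). Irf9 (-0.26, adjusted p = 0.0514) and Irf1 (-0.16) missed the threshold and were past it with a replicate block, a fit that pairs samples by replicate number. Irf9 was also lower by the DESeq2 Wald test, with DESeq2 size factors, with no filter on low counts and with no doublet removal. It was lower too with the stricter cell filter and without Txnip-KO 2 or Txnip-KO 3. Stat2 had a log2 fold change of 0.00 with an SE of 0.09, and was higher with equal cell numbers per gate.

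Both members of the ISG15 system were lower, beside 19.3% of all genes tested. Isg15 (chromosome 4, 156199424 to 156200818, minus strand), a ubiquitin-like protein joined to other proteins, had 4.75, 7.23 and 6.68 CPM in Txnip-KO, against 18.8, 14.01 and 14.3 in WT. These are 277, 507 and 415 UMIs, against 1186, 971 and 937. Every Txnip-KO value was below every WT value, and the log2 fold change was -1.33 (SE 0.18; adjusted p = 0.00173).

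Usp18, which removes ISG15 and damps type I receptor signalling, had 3.48, 4.55 and 5.02 CPM in Txnip-KO, against 9.12, 7.35 and 9.26 in WT. The groups were apart (-0.98, SE 0.16; adjusted p = 0.00311). Zbp1 had 8.85, 7.25 and 7.01 CPM in Txnip-KO, against 15.8, 11.7 and 14.52 in WT, without overlap (-0.86, SE 0.14; adjusted p = 0.00293). The other sensor, Ifih1, stood at 0.19 on the log2 fold scale (SE 0.12; adjusted p = 0.253).

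Of 13 antiviral effectors, 3 were lower, near the 19.3% of all genes, 1 was higher, and 9 were not past the threshold. Ifit3 had 0.841, 1.18 and 0.820 CPM in Txnip-KO, against 3.14, 1.54 and 2.53 in WT (-1.33, SE 0.29; adjusted p = 0.00866). It rests on 49, 83 and 51 UMIs, against 198, 107 and 166, and reads may be split with the near-identical Ifit3b. Ifit1 (-0.80, adjusted p = 0.0173) and Oas3 (-0.41, adjusted p = 0.0309) were lower too. Ifit1 lost its call without WT 1 or WT 3, and Oas3 without Txnip-KO 2 or any 1 WT sample.

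Ifitm1 had 726, 501 and 1134 CPM in Txnip-KO, against 364, 511 and 447 in WT. Txnip-KO 2 lay within the WT range and the other 2 above it (0.84, SE 0.26; adjusted p = 0.0349). The call was lost by the DESeq2 Wald test (0.80) and without Txnip-KO 3 (0.47), WT 1 (0.71), WT 2 (0.95) or WT 3 (0.84). The members without a call ranged from -0.41 for Oas2 to 0.37 for Rsad2, the protein viperin. The others were Ifitm2 (0.02), Ifitm3 (-0.18), Samhd1 (0.17), Isg20 (-0.34), Ifit2, Oasl2 and Oas1a. Isg20 was lower with the replicate block, with equal cell numbers per gate and without Txnip-KO 3, and Ifitm3 by the DESeq2 Wald test. Samhd1 was higher with equal cell numbers per gate, and Rsad2 without WT 1.

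Of 7 GTPases, Gbp3 and Ifi47 were lower, beside 19.3% of all genes tested. Gbp3, a guanylate-binding protein, had 11.1, 13.4 and 11.1 CPM in Txnip-KO, against 19.1, 16.2 and 17.7 in WT, without overlap (-0.57, SE 0.10; adjusted p = 0.00456). Ifi47 was lower by a smaller amount (-0.28, adjusted p = 0.0415) and lost the call without Txnip-KO 1, Txnip-KO 3, WT 1 or WT 3. Igtp, Irgm1, Iigp1, Gbp7 and Gbp2 lay between -0.22 and 0.06. Guanylate-binding genes are alike in sequence, so reads may be split between them.

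Of the 9 other induced members, 5 were lower and none was higher by edgeR, by DESeq2 or at an unadjusted p under 0.05. Of all genes tested, 19.3% were lower and 21.8% higher by edgeR. Ifi27l2a (chromosome 12, 103442167 to 103443680, minus strand), a small interferon-induced membrane protein, had 45.1, 44.1 and 59.5 CPM in Txnip-KO, against 108, 125 and 147 in WT. The highest Txnip-KO value was well below the lowest WT value (-1.35, SE 0.15; adjusted p = 0.00105). Ifi35 had 26.5, 31.1 and 34.2 CPM in Txnip-KO, against 46.2, 47.5 and 49.6 in WT, again without overlap (-0.64, SE 0.09; adjusted p = 0.00222).

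Xaf1, a binding partner of the apoptosis inhibitor XIAP, had 19.9, 21.6 and 22.9 CPM in Txnip-KO, against 28.2, 26.4 and 30.6 in WT (-0.40, SE 0.08; adjusted p = 0.00651). Rtp4 (-0.70, adjusted p = 0.00840) and Ifi27 (-0.37, adjusted p = 0.0392) were lower too, and Ifi27 lost its call without Txnip-KO 1, Txnip-KO 3 or any 1 WT sample. Trim30a, Ifi44, Ly6e and Parp14 were not past the threshold, from -0.29 for Ifi44 to 0.00 for Parp14. Trim30a was lower with the replicate block, by the DESeq2 Wald test, with DESeq2 size factors and with no filter on low counts. It was lower too with no doublet removal and without Txnip-KO 1 or Txnip-KO 3. Ifi44 was lower with equal cell numbers per gate and without Txnip-KO 2. The members lower under every alternative tried were 10 of the 15: Ifi27l2a, Isg15, Ifi35, Irf7, Zbp1, Usp18, Gbp3, Xaf1, Rtp4 and Ifit3.

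Cells with transcripts of many induced members were rare. The 15 members counted were Isg15, Usp18, Irf7, Rtp4, Zbp1, Xaf1, Ifit1, Ifit3, Oas3, Ifit2, Rsad2, Oasl2, Oas1a, Oas2 and Ifi44. Those from Isg15 to Oas3 in this order were called lower over all cells above, from the same UMIs. The shares below are therefore no separate support for those calls. With each cell thinned to 2000 UMIs and shallower cells left out (1095 in Txnip-KO and 1106 in WT), at least 4 of 15 induced members were seen in 14 of 5643, 36 of 7538 and 15 of 7229 cells of the Txnip-KO samples, against 57 of 5882, 42 of 6622 and 65 of 6398 cells of the WT samples. These are 0.248%, 0.478% and 0.207% of Txnip-KO cells, against 0.969%, 0.634% and 1.02% of WT cells. Every Txnip-KO share was below every WT share, at 0.311% ± 0.146 in Txnip-KO and 0.873% ± 0.208 in WT (SD, n = 3 each). The two-sided exact permutation test gave p = 0.1, the smallest that 3 against 3 can give. Without thinning, when deeper cells count more, the shares were 3.35% ± 0.563 in Txnip-KO and 6.80% ± 0.945 in WT.

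By gate the thinned shares rest on few cells. In NK cells they were 0.278%, 0.295% and 0.0634% in Txnip-KO, against 1.43%, 0.652% and 0.543% in WT (exact permutation p = 0.1). In lymphoid-primed progenitors they were 0.442% ± 0.179 in Txnip-KO and 1.19% ± 0.508 in WT, and the groups overlapped (exact permutation p = 0.2). In conventional dendritic cells the mean was higher in Txnip-KO, at 2.14% ± 1.92 in Txnip-KO and 0.855% ± 1.48 in WT (SD, n = 3 each), as it was in innate lymphoid cells, at 0.476% ± 0.825 in Txnip-KO and 0.212% ± 0.368 in WT. The groups overlapped in both.

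**Figure D3:**
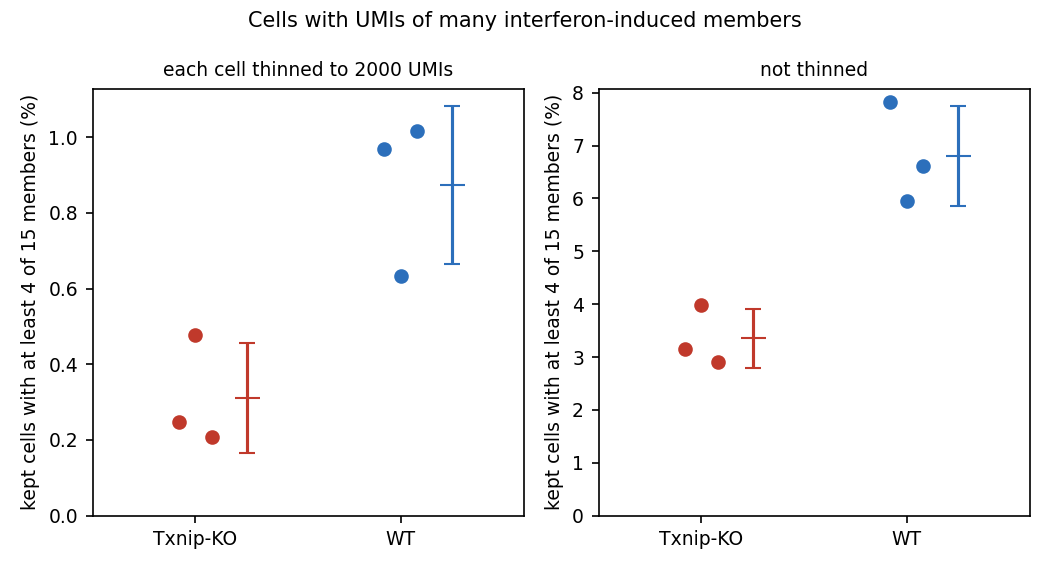
Share of kept cells with a UMI of at least 4 of 15 induced members in each sample (points), with the mean ± SD (n = 3) beside them, after thinning each cell to 2000 UMIs (left panel) and without thinning (right panel). The 3 Txnip-KO samples lie below the 3 WT samples in both panels.

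By gate, 395 tests of a member in a gate gave 87 lower (22.03%) and 39 higher (9.87%) in Txnip-KO, and 24 were higher without WT 2. Over all genes, the same 14 fits gave 12.5% lower and 11.4% higher. The share of members called lower was above the gate's own background in 9 of 14 gates, and the members' median lay below that of all genes in 10. Of the 41 members, 22 were lower in at least 1 gate and higher in none, 6 were higher in at least 1 and lower in none, 6 were called in both directions and 7 in no gate. The same count over all genes was not made, so these numbers cannot be read as particular to the members. CPM per gate are scaled within the gate.

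**Figure D4:**
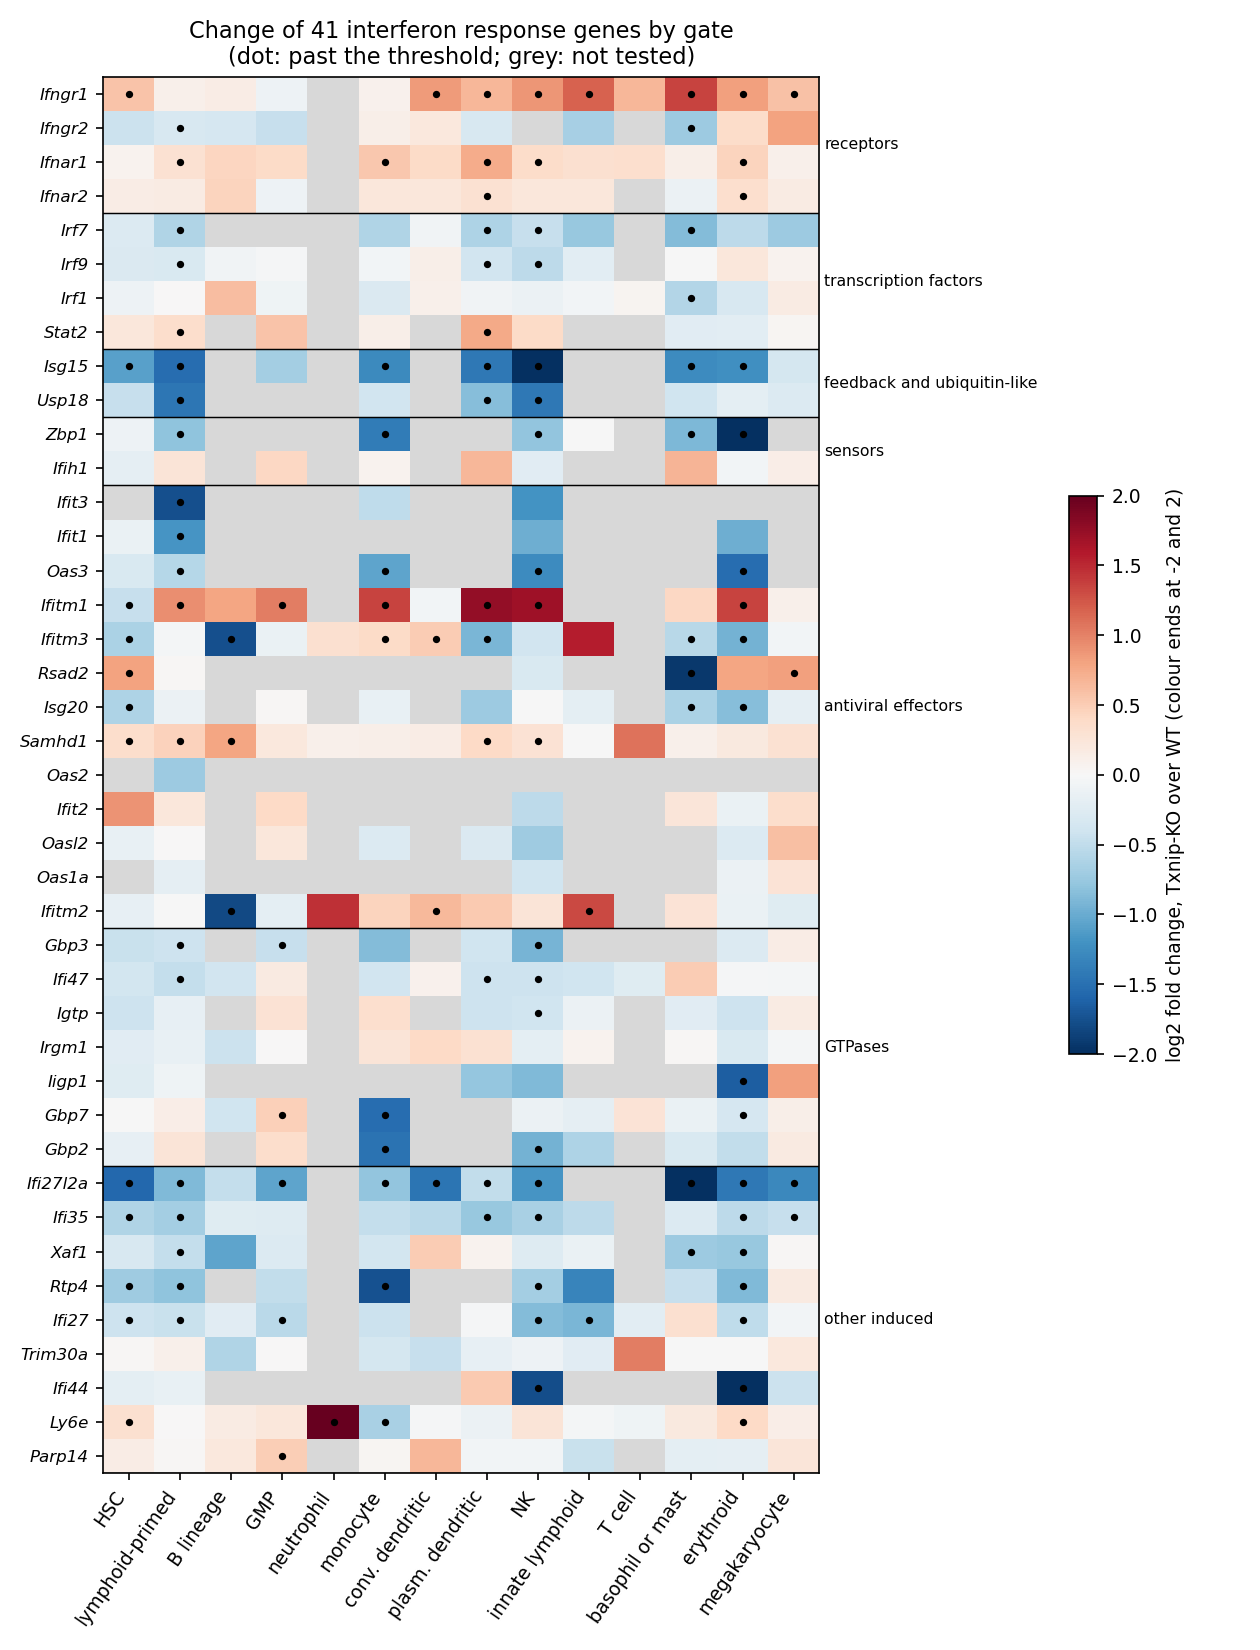
Log2 fold change, Txnip-KO over WT, of each member (rows, by role) in each of 14 gates (columns); blue is lower and red higher in Txnip-KO, a dot marks a call at an adjusted p under 0.05, and grey was not tested after the filter on low counts. Of 395 tests, 87 were lower and 39 higher, with Ifi27l2a lower in 10 columns and Ifngr1 higher in 8.

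In lymphoid-primed progenitors, 16 of 41 members were lower (background 25%) and 4 were higher (background 22.9%). Isg15 had 4.16, 6.76 and 7.46 CPM in Txnip-KO, against 23.6, 15.9 and 14.3 in WT (-1.53, SE 0.21; adjusted p = 0.000243). Ifi27l2a had 36.6, 54.4 and 56.4 CPM in Txnip-KO, against 95.4, 83.5 and 95.2 in WT (-0.89, SE 0.13; adjusted p = 0.000325). Ifitm1 went the other way, with 425, 380 and 365 CPM in Txnip-KO, against 184, 231 and 202 in WT (0.92, SE 0.09; adjusted p = 5.49e-05). None of the 3 overlapped between groups. The other higher members were Ifnar1, Stat2 and Samhd1, a dNTP hydrolase that starves viruses of nucleotides. The summed level of the HSC marker list in this gate was 345 to 516 CPM in Txnip-KO and 216 to 244 in WT, and that of the B-lineage list 81.6 to 137 and 300.5 to 336. The granulocyte-monocyte progenitor list summed to 1409 to 1470 in Txnip-KO and 1068 to 1123 in WT. The erythroid list summed to 103 to 188 and 30.6 to 50.4, and the megakaryocyte list to 35.5 to 60.3 and 23.3 to 33.0. The part of these lists in the results was not tested.

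In NK cells, 15 of 39 members were lower (background 14.6%) and 4 were higher (background 13.8%), with a median log2 fold change of -0.40. Isg15 had 2.73, 5.21 and 4.74 CPM in Txnip-KO, against 28.6, 16.5 and 12.2 in WT, its largest change in any gate (-2.19, SE 0.31; adjusted p = 0.00026). Gbp2 had 11.9, 14.9 and 11.4 CPM in Txnip-KO, against 22.7, 24.3 and 26.2 in WT (-0.95, SE 0.15; adjusted p = 0.000534). Both were lower in each Txnip-KO sample. Ifitm1 had 14.8, 20.8 and 26.2 CPM in Txnip-KO, against 5.38, 8.11 and 5.92 in WT (1.70, SE 0.23; adjusted p = 0.000171). The higher members beside it were Ifngr1, Ifnar1 and Samhd1. The summed level of the innate lymphoid list was 808 to 847 CPM in Txnip-KO and 507 to 533 in WT, and its part in these results was not tested.

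In erythroid cells, 13 of 39 members were lower (background 15.5%) and 5 were higher (background 13.9%). Ifitm3 had 105, 105 and 160 CPM in Txnip-KO, against 214, 244 and 257 in WT (-0.95, SE 0.14; adjusted p = 0.000712). Isg20 had 19.4, 29.9 and 44.1 CPM in Txnip-KO, against 58.1, 50.3 and 63.5 in WT (-0.85, SE 0.21; adjusted p = 0.00977), a call lost without WT 3 (-0.77). Ifngr1 had 591, 479 and 435 CPM in Txnip-KO, against 287, 274 and 290 in WT (0.82, SE 0.10; adjusted p = 0.000244). Ifngr1 was above and the other 2 were below WT in each Txnip-KO sample. Without Txnip-KO 1, WT 1 or WT 2, 3, 3 and 2 members were higher. The HSC list summed to 89.0 to 97.1 CPM in Txnip-KO and 54.9 to 64.6 in WT, and the granulocyte-monocyte progenitor list to 59.3 to 112 and 34.9 to 44.4. Their part in these results was not tested.

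In basophil or mast cells, 10 of 32 members were lower (background 10.6%) and 1 was higher (background 10.3%). Ifi27l2a had 3.33, 4.29 and 5.72 CPM in Txnip-KO, against 26.8, 57.3 and 22.7 in WT, its largest change in any gate (-3.08, SE 0.44; adjusted p = 0.000816). Ifngr1, the higher member, had 272, 362 and 459 CPM in Txnip-KO, against 157, 131 and 140 in WT (1.35, SE 0.17; adjusted p = 0.000427). Zbp1 had 9.56, 10.0 and 5.72 CPM in Txnip-KO, against 18.6, 14.3 and 15.4 in WT (-0.89, SE 0.26; adjusted p = 0.0301). All 3 were without overlap, but Ifi27l2a rests on 8, 6 and 8 UMIs in Txnip-KO, against 65, 184 and 59 in WT.

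The count of lower members in basophil or mast cells fell whichever sample was left out. It was 7 without Txnip-KO 1 or Txnip-KO 3, and 4, 3, 2 and 4 without Txnip-KO 2, WT 1, WT 2 and WT 3. Without Txnip-KO 1 and Txnip-KO 2, 3 and 2 members were higher. A fit with fewer samples has less power, and the share of all genes called in such fits was not counted, in this gate or any other. Zbp1 lost its call without Txnip-KO 2 (-0.99), Txnip-KO 3 (-0.70), WT 1 (-0.78), WT 2 (-0.97) or WT 3 (-0.92), by the DESeq2 Wald test (-0.94) and with 1 more marker required for the gate (-0.41), when 4 members were lower. The gate's own marker list summed to 9783 to 18284 CPM in Txnip-KO and 29174 to 37761 in WT, so the gated cells differed in their markers as well, and the part of this in the result was not tested.

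In HSCs, 8 of 38 members were lower (background 9.34%) and 4 were higher (background 8.86%). Ifi27l2a had 7.49, 6.29 and 12.04 CPM in Txnip-KO, against 19.1, 28.6 and 24.96 in WT (-1.56, SE 0.26; adjusted p = 0.000373). Isg15 had 9.76, 12.6 and 10.6 CPM in Txnip-KO, against 26.8, 20.2 and 22.7 in WT (-1.09, SE 0.23; adjusted p = 0.00210). Rsad2 was higher, with 15.9, 26.6 and 19.8 CPM in Txnip-KO, against 13.9, 10.5 and 10.6 in WT (0.80, SE 0.26; adjusted p = 0.0303). The groups did not overlap for these 3, but Rsad2 lost its call by the DESeq2 Wald test (0.80), with the stricter cell filter (0.77) and without Txnip-KO 2 (0.55), WT 2 (0.73) or WT 3 (0.74). Without Txnip-KO 1 or WT 2, 4 members were lower, and 1 to 2 were higher without Txnip-KO 1, Txnip-KO 2, WT 2 or WT 3. The HSC list summed to 1415 to 1563 CPM in Txnip-KO and 1086 to 1243 in WT, and the granulocyte-monocyte progenitor list to 656 to 847 and 366 to 434. The lymphoid-primed list summed to 524 to 597 and 389 to 438, and the basophil or mast list to 218 to 286 and 147 to 163. The plasmacytoid dendritic list summed to 305 to 372 and 204 to 225, and the innate lymphoid list to 65.0 to 75.5 and 43.0 to 45.2. Their part in these results was not tested.

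In monocytes, 8 of 34 members were lower (background 9.05%) and 3 were higher (background 7.54%). Zbp1 had 15.5, 30.7 and 12.02 CPM in Txnip-KO, against 52.4, 44.3 and 42.8 in WT (-1.39, SE 0.25; adjusted p = 0.00207). Isg15 had 4.86, 9.35 and 9.01 CPM in Txnip-KO, against 20.4, 17.3 and 14.3 in WT (-1.27, SE 0.31; adjusted p = 0.0126), and lost its call by the DESeq2 Wald test (-1.24) and without Txnip-KO 1 (-0.92). Ifitm1 was higher, with 38.4, 44.1 and 48.1 CPM in Txnip-KO, against 6.95, 18.1 and 25.3 in WT (1.35, SE 0.31; adjusted p = 0.00836). The groups were apart for all 3, but Isg15 rests on 10, 7 and 12 UMIs in Txnip-KO, against 44, 43 and 31 in WT. Without Txnip-KO 1, 4 members were lower, and without Txnip-KO 3 only 1 was higher. The conventional dendritic list summed to 9198 to 15975 CPM in Txnip-KO monocytes and 6875 to 7869 in WT monocytes. The gate's own list summed to 6259 to 7816 and 6202 to 6423, below the dendritic list in every sample. The part of these lists in the results was not tested.

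In plasmacytoid dendritic cells, 8 of 30 members were lower (background 13.4%) and 6 were higher (background 12.5%). Isg15 had 1.95, 9.87 and 15.1 CPM in Txnip-KO, against 31.7, 22.3 and 22.8 in WT (-1.42, SE 0.33; adjusted p = 0.00285). Ifi35 had 38.9, 61.7 and 56.4 CPM in Txnip-KO, against 82.3, 96.1 and 84.1 in WT (-0.75, SE 0.16; adjusted p = 0.00106). Stat2 was higher, with 172, 179 and 118 CPM in Txnip-KO, against 101, 82.6 and 91.8 in WT (0.76, SE 0.14; adjusted p = 0.000303). None of these overlapped, but Isg15 rests on 2, 8 and 19 UMIs in Txnip-KO, against 74, 76 and 89 in WT.

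In the same gate Irf7 had 66.2, 72.8 and 92.2 CPM in Txnip-KO, against 123, 114 and 122 in WT (-0.62, SE 0.13; adjusted p = 0.00147), while Ifnar1 had 336, 358 and 249 CPM in Txnip-KO, against 196, 186 and 177 in WT (0.75, SE 0.12; adjusted p = 6.81e-05). Both were named after their values were seen. The gate with the most Irf7 and Ifnar1 in WT thus had less of one and more of the other in Txnip-KO. Without Txnip-KO 1, Txnip-KO 2 or WT 3, 4, 3 and 3 members were lower. With the stricter cell filter 3 were, and Isg15 (-0.94) and Stat2 (0.51) then lost their calls. The lymphoid-primed list summed to 1681 to 2021 CPM in Txnip-KO and 1382 to 1497 in WT, and its part in these results was not tested.

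The granulocyte-monocyte progenitors had 3 lower and 3 higher of 30 members (backgrounds 15.8% and 14.4%), both shares under the background. Ifi27l2a had 6.55, 5.00 and 8.91 CPM in Txnip-KO, against 17.7, 11.9 and 12.8 in WT (-1.05, SE 0.26; adjusted p = 0.00257). Ifi27 had 41.1, 61.9 and 58.5 CPM in Txnip-KO, against 81.5, 76.4 and 79.8 in WT (-0.54, SE 0.13; adjusted p = 0.00145). Parp14 was higher, with 25.2, 29.98 and 27.2 CPM in Txnip-KO, against 18.8, 21.8 and 17.6 in WT (0.49, SE 0.16; adjusted p = 0.0232). All were without overlap, and Parp14 lost its call without Txnip-KO 2 (0.41), WT 1 (0.46) or WT 3 (0.43) and by the DESeq2 Wald test (0.48). Parp14 also lost it with no filter on low counts (0.44) and with the stricter cell filter (0.53), and Ifi27l2a with the stricter cell filter (-0.58) or 1 more marker (-0.93). The gate's own list summed to 5496 to 6474 CPM in Txnip-KO and 9928 to 11151 in WT, and the HSC list to 200.3 to 244 and 85.5 to 112. Their part in these results was not tested.

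Megakaryocyte cells had 2 lower and 2 higher of 36 members (backgrounds 13.1% and 10.3%), also under the background, with a median log2 fold change of 0.12. Ifngr1 had 83.8, 79.1 and 104 CPM in Txnip-KO, against 55.4, 55.9 and 65.9 in WT (0.58, SE 0.12; adjusted p = 0.00328). Ifi35 had 20.4, 21.5 and 29.0 CPM in Txnip-KO, against 32.2, 29.5 and 34.5 in WT (-0.46, SE 0.15; adjusted p = 0.0381). Neither overlapped, but Ifi35 kept its call without Txnip-KO 3 and lost it without any other sample (-0.39 to -0.53). Ifi35 also lost it by the DESeq2 Wald test (-0.48), with no doublets removed (-0.41) and with 1 more marker (-0.44). Without Txnip-KO 1, Txnip-KO 2, WT 2 or WT 3, 1 member was lower, without Txnip-KO 2, WT 2 or WT 3, 1 was higher, and without WT 1 none was lower (edgeR, with 3 at an unadjusted p under 0.05 and 2 by DESeq2 in all samples). The HSC list summed to 221 to 253 CPM in Txnip-KO and 137 to 160.1 in WT, and its part in these results was not tested.

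In conventional dendritic cells, 1 of 19 members was lower (background 6.78%) and 3 were higher (background 7.54%). Ifi27l2a had 120, 287 and 195 CPM in Txnip-KO, against 545, 543 and 549 in WT (-1.46, SE 0.20; adjusted p = 3.99e-05). Ifitm3 had 2405, 2839 and 2927 CPM in Txnip-KO, against 1936, 1622 and 2181 in WT (0.51, SE 0.11; adjusted p = 0.00338). Ifitm2 had 783, 792 and 1155 CPM in Txnip-KO, against 684, 418 and 679 in WT (0.64, SE 0.18; adjusted p = 0.0184). The 3 were without overlap. Both Ifitm genes lost their calls without WT 2 (0.39 for Ifitm3 and 0.41 for Ifitm2), Ifitm2 also without Txnip-KO 3 (0.42), and without WT 2 no member was higher. The monocyte list summed to 2145 to 2929 CPM in Txnip-KO and 1810 to 1892 in WT, and the gate's own list to 41047 to 43362 and 31334 to 37545. Their part in these results was not tested.

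In innate lymphoid cells, 1 of 24 members was lower (background 1.62%) and 2 were higher (background 1.91%). Ifngr1 had 314, 297 and 397 CPM in Txnip-KO, against 131, 143 and 170 in WT (1.18, SE 0.14; adjusted p = 3.43e-05). Ifitm2 had 30.5, 39.3 and 46.3 CPM in Txnip-KO, against 7.86, 21.9 and 16.7 in WT (1.32, SE 0.31; adjusted p = 0.0210). Ifi27 was lower, with 32.3, 43.7 and 42.3 CPM in Txnip-KO, against 82.5, 73.5 and 70.0 in WT (-0.91, SE 0.20; adjusted p = 0.0120). The groups were apart for each, but Ifitm2 rests on 17, 27 and 34 UMIs in Txnip-KO, against 6, 17 and 16 in WT. Ifi27 lost its call without WT 1 (-0.86), and Ifitm2 without Txnip-KO 3 (1.16), WT 1 (1.02) or WT 3 (1.38), and 2 members were lower without Txnip-KO 2. The gate's own list summed to 5707 to 6325 CPM in Txnip-KO and 4517 to 4919 in WT, and its part in these results was not tested.

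In the B lineage, 2 of 20 members were lower (background 7.05%) and 1 was higher (background 5.91%). Ifitm2 had 16.8, 96.5 and 48.0 CPM in Txnip-KO, against 101, 203 and 169 in WT (-1.80, SE 0.39; adjusted p = 0.00773). Ifitm3 had 18.9, 60.9 and 15.2 CPM in Txnip-KO, against 68.7, 123 and 74.9 in WT (-1.75, SE 0.40; adjusted p = 0.0104). Samhd1 was higher, with 330, 249 and 354 CPM in Txnip-KO, against 180, 151 and 216 in WT (0.79, SE 0.19; adjusted p = 0.0137). No pair of groups overlapped, but Ifitm2 and Ifitm3 lost their calls with no doublets removed (-1.24 and -1.35), leaving 0 lower. Ifitm3 lost its call without Txnip-KO 1 (-1.48), Txnip-KO 3 (-1.43) or WT 2 (-1.45), and Samhd1 without Txnip-KO 1 (0.76), Txnip-KO 3 (0.70), WT 1 (0.77) or WT 2 (0.66); both also lost it with the stricter cell filter (-1.56 and 0.86). Without Txnip-KO 1 or WT 2, 1 member was lower. Ifitm2 rests on 8, 19 and 19 UMIs in Txnip-KO, against 47, 86 and 79 in WT. Ifitm3 rests on 9, 12 and 6 UMIs in Txnip-KO, against 32, 52 and 35 in WT. The innate lymphoid list summed to 941 to 961 CPM in Txnip-KO and 327 to 455 in WT, and the B-lineage list to 16711 to 18644 and 14234 to 15042. The lymphoid-primed list summed to 4905 to 5592 and 3857 to 4297, and the stromal list to 18.9 to 39.6 and 62.8 to 80.7. Their part in these results was not tested.

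Too few cells limited the remaining gates. In neutrophils 4 members could be tested, 0 were lower by edgeR, at an unadjusted p under 0.05 or by DESeq2 (background 1.27%), and 1 was higher (background 1.27%). At an unadjusted p under 0.05, 2 were higher, and by the DESeq2 Wald test 3 of 40 tested. Ly6e, a membrane protein that can block viral fusion, had 197, 156 and 326 CPM in Txnip-KO, against 10.9, 37.8 and 82.6 in WT, without overlap (2.46, SE 0.49; adjusted p = 0.0284). Ly6e rests on 164, 11 and 94 UMIs in Txnip-KO, against 1, 4 and 7 in WT. It lost its call without Txnip-KO 3 (2.13), WT 1 (2.004), WT 2 (2.35) or WT 3 (3.22) and with 1 fewer marker (1.83). Without Txnip-KO 2, 3 members were higher. In T cells none of 9 members was called by edgeR or DESeq2, with 0 lower and 2 higher at an unadjusted p under 0.05 (backgrounds 0.103% and 0%), and without WT 2 those 2 were called.

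The genotype effect itself differed between gates for 24 of 41 members (edgeR quasi-likelihood F test of gate by genotype, adjusted p under 0.05), against 33% of all genes tested. Without Txnip-KO 1 the number was 15. Ifitm3 had the smallest p, then Ifngr1, Ifitm2, Ly6e and Ifitm1. The 17 members without a call included Irf7 (adjusted p = 0.751), Ifi35 (0.341) and Rtp4 (0.159), whose log2 fold changes lay below 0 in 10 of 10, 12 of 12 and 8 of 9 gates tested. A p that misses the threshold does not show that the effect was equal in all gates.

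**Figure D5:**
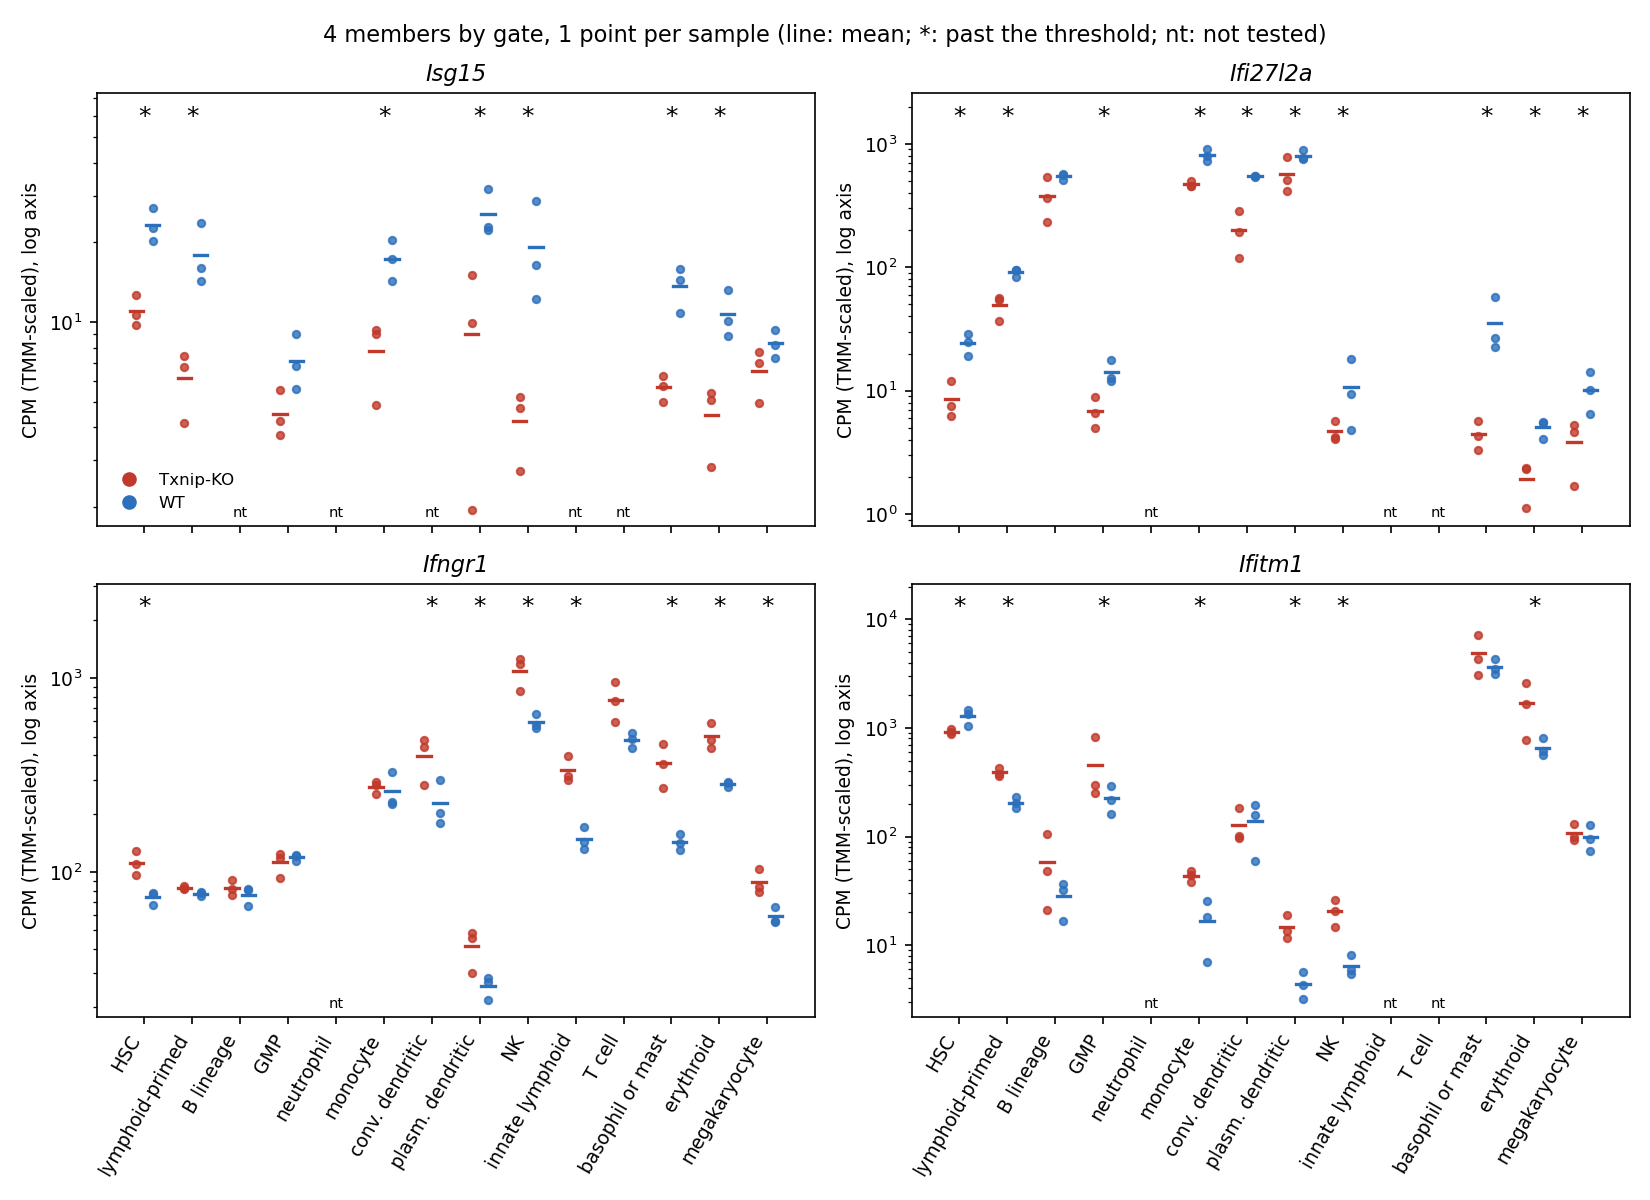
CPM on a log axis of Isg15, Ifi27l2a, Ifngr1 and Ifitm1 in each gate, 1 point per sample with the mean as a line, Txnip-KO (red) left of WT (blue); an asterisk marks a call and nt a gate not tested. Isg15 and Ifi27l2a have log2 fold changes below 0 in each gate tested (9 and 11), while Ifngr1 was called higher in 8 gates and Ifitm1 higher in 6 and lower in HSC.

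Ifi27l2a was lower in 10 of 11 gates tested, from -0.49 in plasmacytoid dendritic cells to -3.08 in basophil or mast cells, and its effect differed between gates (adjusted p = 4.46e-05). The gate without a call was the B lineage (-0.48, SE 0.22). The value in basophil or mast cells rests on 8, 6 and 8 UMIs in Txnip-KO. Counts were not corrected for transcripts released by other cells, and the part of such transcripts in these changes was not tested. Isg15 was lower in 7 of 9 gates tested, and the 2 without a call were megakaryocyte cells (-0.36, SE 0.25) and granulocyte-monocyte progenitors (-0.67, SE 0.32). Ifi35, which binds the interferon-induced protein Nmi, was below 0 in all 12 gates tested and past the threshold in 6.

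Ifngr1 was higher in 8 of 13 gates and lower in none by edgeR, and its effect differed between gates (adjusted p = 1.89e-09). Its largest changes were in basophil or mast cells (1.35) and innate lymphoid cells (1.18), and in NK cells, its highest gate in WT, it had 1179, 856 and 1252 CPM in Txnip-KO, against 551, 575 and 655 in WT (0.88, SE 0.12). In lymphoid-primed progenitors it had 85.0, 81.2 and 82.4 CPM in Txnip-KO, against 78.6, 75.0 and 77.6 in WT (0.10, SE 0.06). In granulocyte-monocyte progenitors and monocytes the log2 fold change was -0.10 (SE 0.11) and 0.08 (SE 0.15). The gates with higher Ifngr1 thus included HSCs and the erythroid, megakaryocyte and basophil or mast gates, but not these 3.

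Ifitm1 was higher in 6 of 11 gates tested and lower in HSCs, and its effect differed between gates (adjusted p = 8.29e-06). In HSCs it had 875, 984 and 920 CPM in Txnip-KO, against 1050, 1460 and 1337 in WT (-0.47, SE 0.10; adjusted p = 0.00341). In erythroid cells it had 1678, 772 and 2612 CPM in Txnip-KO, against 560, 800.3 and 615 in WT (1.36, SE 0.31), with Txnip-KO 2 inside the WT range. In basophil or mast cells, its highest gate in WT, it had 4285, 3107 and 7179 CPM in Txnip-KO, against 3119, 3527 and 4282 in WT, and the groups overlapped (0.41, SE 0.23; adjusted p = 0.222).

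Ifitm3 was lower in 5 gates (HSC, B lineage, plasmacytoid dendritic, basophil or mast and erythroid) and higher in its 2 highest gates in WT, monocytes (0.38) and conventional dendritic cells (0.51). In HSCs it had 519, 652 and 647 CPM in Txnip-KO, against 852, 1013 and 956 in WT (-0.63, SE 0.10; adjusted p = 0.000197). In monocytes it had 3323, 3676 and 3959 CPM in Txnip-KO, against 2593, 2881 and 2926 in WT (0.38, SE 0.09; adjusted p = 0.00883). The groups were apart in both gates, in opposite directions. The Ifitm genes lie next to each other on chromosome 7 and are alike in sequence, so reads could be split between them.

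Genes of the pathway outside the list were read over all kept cells. Of 13 kinases and regulators, 4 were lower and 3 higher, beside 19.3% and 21.8% of all genes tested. Ptpn6, a phosphatase that damps cytokine receptor signals, had 104, 94.9 and 85.9 CPM in Txnip-KO, against 138, 147 and 153 in WT (-0.62, SE 0.09; adjusted p = 0.00190). Stat3 (0.55, SE 0.11; adjusted p = 0.00651) and Pias1 (0.31, SE 0.06; adjusted p = 0.00538), an inhibitor of STAT signalling, were higher. None of the 3 overlapped between groups.

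Of 13 nucleic acid sensing genes tested, 4 were lower and 1 higher, beside the same 19.3% and 21.8%. The adaptor Sting1 (-0.43, SE 0.09; adjusted p = 0.00890), the endosomal receptor chaperone Unc93b1 (-0.45, SE 0.11; adjusted p = 0.0137) and Tlr9, which detects unmethylated DNA (-1.15, SE 0.38; adjusted p = 0.0417), were lower. Ikbke, a kinase that activates interferon regulatory factors, was higher (0.43, SE 0.11; adjusted p = 0.0190). Tlr9 stood at 0.128 to 0.225 CPM in Txnip-KO and 0.270 to 0.564 in WT.

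Transcripts of the interferons themselves were few. Ifng, made by NK and T cells, had 184, 150 and 262 UMIs in Txnip-KO, against 377, 227 and 297 in WT, and was the only 1 of 8 interferon genes that could be tested (-0.54, SE 0.28; adjusted p = 0.160). Ifnb1 had 0 UMIs in Txnip-KO and 2 in WT, Ifnk had 2 in each group, and the other 5 had 0 in all samples, each under the floor of 3 counts per group, which covers counting error only.

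Of 48 further induced genes tested, 20 were lower (41.7%) and 4 higher, beside the backgrounds of 19.3% and 21.8% given above, with a median log2 fold change of -0.22. Cmpk2, a mitochondrial nucleotide kinase next to Rsad2 in the genome, had 5.28, 5.52 and 5.24 CPM in Txnip-KO, against 9.84, 8.99 and 9.92 in WT (-0.84, SE 0.09; adjusted p = 0.00113). Psme2, a subunit of the proteasome activator, had 98.8, 124 and 123 CPM in Txnip-KO, against 197, 190 and 206 in WT (-0.78, SE 0.10; adjusted p = 0.00149). Phf11b was lower (-0.74, SE 0.11; adjusted p = 0.00230). Trim34a was higher, with 26.4, 23.98 and 24.7 CPM in Txnip-KO, against 18.0, 15.2 and 16.3 in WT (0.60, SE 0.08; adjusted p = 0.00188). All 4 were without overlap.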

How the data were processed

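The deposited files hold raw UMI counts per gene and barcode; the authors made them with Cell Ranger (6.1.1), and the submitters' processing notes also name CASAVA 1.8 and Seurat 2.3.4. Sources used here state neither the build nor whether counting used strand. A barcode needed 500 genes, 1000 UMIs and at most 10% mitochondrial UMIs (44399 of 48277), and the highest Scrublet scores were then removed (scanpy 1.11.5; 0.8% per 1000 barcodes, 2886 cells; Scrublet's own threshold marked 1442). A cell joined a gate with UMIs of at least 4 of that list's markers and a share of the list's markers at least 10 percentage points above that of each of the other lists (16 in all). Gates with 20 or more cells in every sample were compared. In some gates, marker lists other than those given also differed between groups without overlap.

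UMI sums per sample, of all kept cells or of 1 gate, were tested with edgeR 4.0.16 (R 4.3.3): filterByExpr, TMM scaling, quasi-likelihood test, Benjamini-Hochberg adjustment over all genes tested, threshold 0.05. Tests between gates had the sample as a block. SEs are the log2 fold change over the root of F. The fits were tested on simulated data. DESeq2 1.42.0 was an alternative. Same-numbered samples of the 2 groups, numbered in their titles, deviated together (r = 0.295, 0.167 and 0.261 for numbers 1, 2 and 3). Samples of unlike number had r of -0.24 to -0.02. Deviations from a group mean cancel within the group, so positive and negative values both arise by construction. The fits reported do not use this pairing, and the replicate block, which does, was an alternative. Depth was 54150321 to 71355508 UMIs per sample.

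Values in every sample are given over all cells for the called members with the smallest p (at most 8 lower and 4 higher) and for the receptor chains; per gate, for at most 3 called members with the largest change, a mean of at least 10 CPM and no overlap between groups; in WT, for at most 3 members per gate with the largest ratio to the other gates; in other lists, at most 4 genes with the smallest p are named, of which 1 is not reported here. Values of Ifit3, of Ifngr1, Ifitm1 and Ifitm3 in gates outside that rule, WT levels of receptors and other members outside it, and Irf7 and Ifnar1 in plasmacytoid dendritic cells, were chosen after they were seen. The members and lists were chosen with earlier results of these data known.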

Additional observations from a re-analysis of the deposited data

Results flagged for a closer look

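In 24 members the genotype effect differed between gates, by the edgeR quasi-likelihood F test of gate by genotype; the values below are its adjusted p. The smallest were those of Ifitm3 (2.85e-11), Ifngr1 (1.89e-09), Ifitm2 (1.75e-08), Ly6e (4.65e-08) and Ifitm1 (8.29e-06). Of the GTPases, Gbp2 had 1.22e-05, Ifi47 0.00398 and Gbp7 0.0108. Of the small induced products, Ifi27l2a had 4.46e-05, Ifi27 5.38e-05, Ifi44 0.00127, Trim30a 0.00326, Xaf1 0.0140 and Parp14 0.0251. Among effectors, Rsad2 had 0.00690, Isg20 0.00842, Ifit2 0.0140 and Samhd1 0.0275. The sensor Zbp1 had 0.000489, the receptor chain Ifngr2 0.00198, Usp18 0.00377 and Isg15 0.0116. The transcription factors Irf9 and Irf1 had 0.0362 and 0.0412.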

How the results depend on the processing

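Over all cells, 15 members were lower in the fit reported, and 16 to 18 under the DESeq2 Wald test, DESeq2 size factors, no filter on low counts, no doublet removal, a stricter cell filter and equal cell numbers per gate; the same 15 were among them each time. The count higher was 2, and it was 1 by the DESeq2 Wald test and 5 with equal cell numbers per gate. With the replicate block, 19 members were lower and 2 higher over all cells, Irf1, Irf9, Isg20 and Trim30a joining the lower ones; per gate, 96 were lower and 44 higher, and no call of the 49 named results changed. Leaving out 1 sample at a time gave 10 to 16 lower and 1 to 2 higher over all cells, 61 to 94 lower and 24 to 38 higher per gate, 15 to 23 members whose effect differed between gates, and 40 to 41 that differed between gates in WT. The Txnip log2 fold change then ranged from -5.75 to -4.79, and the share of cells with many induced members differed by -0.681 to -0.491 percentage points. That difference was -0.562 as reported, -0.170 with cells thinned to 1000 UMIs, -3.45 with no thinning, -1.03 for at least 3 members and -0.272 for at least 5; its sign was the same in each, and the cause of the change in size was not tested. By the DESeq2 Wald test, 63 were lower per gate, with 3 in monocytes, 3 in plasmacytoid dendritic cells, 4 in HSCs and 4 in basophil or mast cells. Requiring 1 more marker for a gate gave 73 lower and 39 higher per gate, with 4 lower in HSCs, 4 in basophil or mast cells, 1 in granulocyte-monocyte progenitors and 1 in megakaryocyte cells; requiring 1 fewer gave 87 lower and 39 higher, with 0 called in neutrophils by edgeR. The T cell and neutrophil gates held too few cells under the stricter cell filter. No named result reversed. Depth limits the small gates most: 4 members could be tested in neutrophils and 9 in T cells.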
